A study of Mus musculus with 38 samples.

Results

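The lamin B receptor (LBR) is a multipass protein of the inner nuclear membrane (INM). Its nucleoplasmic part holds a Tudor domain and binds heterochromatin protein HP1, and its membrane part is a sterol reductase of cholesterol synthesis. Chromatin that touches the nuclear rim lies in lamina-associated domains, which are AT-rich, gene-poor, rich in LINE1 elements and clustered receptor genes, and mostly silent. The question of this comparison was how contacts between the genome and the INM differed in mouse embryonic stem (mES) cells without LBR. Contacts were read by CUT&RUN against LAP2B, an INM protein encoded by Tmpo, in which a nuclease tethered to the antibody releases nearby DNA.

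The comparison used 6 of the 38 samples of the series, 3 LBRKO and 3 WT libraries of naive mES cells. The cells were grown without serum or feeders, with LIF and inhibitors of GSK3 and MEK, which hold them in the naive state. The WT line came from another laboratory, and part of its cells lacked the Y chromosome or had extra copies of chromosomes 6 and 8. LBRKO cells were made from this WT line with Cas9 and a guide against exon 2 of Lbr. Several clones were obtained, and the clone behind these libraries was not named in the sources used here. For 2 further contrasts, LBRKO was set against 3 naive TKO libraries, from cells without any of the lamins and with a trisomy of chromosome 8, and the naive LBRKO effect was set against that in 3 LBRKO and 3 WT libraries of epiblast-like cells (EpiLCs), derived from mES cells with FGF and activin A. Nothing in the labels says that replicates were separate cultures, so p-values measure the spread between libraries, which may be technical.

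The deposited value of a gene is LAP2B coverage summed over its 1 kb bins and scaled by the yeast spike-in DNA, called the spike-in scale below. Dividing each library by its median gene (or median transposon family) gives the relative scale, on which the median is 1. Gene values grow with length, so levels were compared between genes only per kb, again as a multiple of the library's median gene. Changes are log2 differences of LBRKO minus WT with a pseudocount of 0.1 on the relative scale, and a gene was called where limma's adjusted p was under 0.05. The 7820 genes with the lowest mean value over all 24 LAP2B libraries were left out, so 70382 genes of 78202 in the table were tested. The fit held these 24 libraries in 8 groups, which are WT, LBRKO, TKO and QKO as naive cells and as EpiLCs. QKO cells lack the lamins and LBR. All 8 groups thus set the estimate of spread and the genes tested.

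The libraries held 19264866 to 41198406 reads over genes, and their median gene held 44 to 104 reads. On log2 values, libraries of 1 genotype correlated across genes at 0.963 to 0.981 and libraries of different genotypes at 0.880 to 0.923. In WT, LAP2B per kb followed naive WT LMNB1 (lamin B1, the lamina's own marker) with Spearman correlations across genes of 0.828, 0.849 and 0.769. In LBRKO these were 0.368, 0.194 and 0.246. The correlations with WT IGG libraries, a background control without LAP2B antibody, were 0.257, 0.143 and 0.275 in WT and 0.459, 0.572 and 0.532 in LBRKO, so the LBRKO profiles lay closer to the background track and further from the lamina track. The naive TKO libraries had 0.35, 0.18 and 0.35 with LMNB1 and 0.58, 0.60 and 0.57 with IGG. The shift was thus not particular to LBRKO. Genes within a library are not independent replicates, and the part of this shift in the results below was not tested. No IGG libraries of LBRKO cells were analysed here, so copy number and LAP2B contact cannot be told apart at any locus.

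Lbr itself spans chr1:181641631-181672984 (mm39, minus strand), and LAP2B coverage over it checks nothing about its disruption, since CUT&RUN reads DNA contact and not protein. Its relative values were 4.58, 4.30 and 5.67 in WT and 7.61, 7.26 and 8.71 in LBRKO. All LBRKO values lay above all WT values, with a change of 0.69 (limma, adjusted p = 2.56e-05).

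The mean level over all genes on the spike-in scale did not separate the genotypes. Its log2 was 3.66 ± 0.31 in WT and 3.73 ± 0.21 in LBRKO (SD, n = 3 each), a difference of 0.068 (two-sided exact permutation test, p = 0.8, where 0.1 is the smallest p that 3 against 3 libraries allow). Without WT replicate 1 the difference was -0.051, and without LBRKO replicate 3 it was -0.044. RPKM already divides out a library's own reads, so this mean mostly follows the spike-in factor. It does not give the ratio of LAP2B reads to spike-in reads. With the spike-in factor applied to read counts recovered from the values, the difference was 0.51 (two-sided exact permutation test, p = 0.3).

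Single genes, in contrast, changed in either direction. On the relative scale 20375 genes were called higher in LBRKO (28.9% of genes tested) and 19229 lower (27.3%). The spike-in scale gave 19920 higher (28.3%) and 12298 lower (17.5%). The median change of all genes was 0.22 there, against 0.06 on the relative scale. The spike-in counts moved when 1 library was left out, as given below. With the spike-in factor applied to recovered reads they were 35158 higher and 6558 lower. The calls that both scales made were 19157 higher and 12297 lower, and 0 genes were called in opposite directions. In 20384 genes (29%) the LBRKO libraries all lay above WT and in 19834 (28.2%) all below, on the relative scale.

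Genes were ranked by size of change among protein-coding genes, and the 10 leading ones in each direction were named by a rule that spreads them over the genome. The 250 bases before the start of the 2 leading genes in each direction are given here from the mm39 genome, on the gene's strand from 5′ to 3′, with CG dinucleotides in capitals because their number differed between the genes.
Ucp2 (higher), chr7:100141805-100142054, plus strand: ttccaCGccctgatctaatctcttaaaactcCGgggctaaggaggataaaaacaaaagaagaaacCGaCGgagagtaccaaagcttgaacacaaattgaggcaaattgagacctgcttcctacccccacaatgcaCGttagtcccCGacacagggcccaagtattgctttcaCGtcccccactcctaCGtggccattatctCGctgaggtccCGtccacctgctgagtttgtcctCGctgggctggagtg
Pcyox1 (higher), chr6:86374152-86374401, minus strand: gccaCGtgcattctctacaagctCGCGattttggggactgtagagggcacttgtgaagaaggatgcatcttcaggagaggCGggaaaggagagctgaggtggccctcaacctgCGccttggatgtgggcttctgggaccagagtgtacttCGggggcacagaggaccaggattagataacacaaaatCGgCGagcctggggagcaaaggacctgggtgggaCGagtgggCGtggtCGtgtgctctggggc
Or1j21 (lower), chr2:36680300-36680549, plus strand: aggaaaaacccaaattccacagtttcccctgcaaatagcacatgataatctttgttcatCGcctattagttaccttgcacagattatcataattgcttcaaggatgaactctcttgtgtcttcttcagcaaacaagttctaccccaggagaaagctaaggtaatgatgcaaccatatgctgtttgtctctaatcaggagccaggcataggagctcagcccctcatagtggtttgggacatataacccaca
Vmn2r34 (lower), chr7:7692513-7692762, minus strand: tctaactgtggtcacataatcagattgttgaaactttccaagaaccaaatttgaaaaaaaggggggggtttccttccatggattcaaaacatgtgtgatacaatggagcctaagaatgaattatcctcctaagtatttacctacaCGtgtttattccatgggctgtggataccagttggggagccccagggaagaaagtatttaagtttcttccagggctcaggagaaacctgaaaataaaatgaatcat
The Ucp2 and Pcyox1 stretches each hold 11 CG, with 52.0% and 58.8% G+C, while those of Or1j21 and Vmn2r34 each hold 1, with 42.4% and 39.6%. Over 20850 protein-coding genes tested with such a stretch the median was 6 CG, and 36.5% held at least 10. Among the 9481 of them called higher the median was 9 CG and 47.9% held at least 10. The median was 2 among the 5016 called lower, where 16.0% held at least 10 and 19.0% held none, against 7.7% of all.

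Ucp2, which encodes a mitochondrial carrier of the uncoupling protein family, had the largest rise of the named genes (chr7:100142055-100151227). Its relative values were 2.24, 3.52 and 2.67 in WT and 13.7, 13.7 and 13.7 in LBRKO, a change of 2.27 ± 0.16 (SE, limma, adjusted p = 7.55e-17). Pcyox1, which encodes an oxidase that degrades prenylated cysteines, had 1.64, 1.50 and 1.87 in WT and 7.19, 8.41 and 8.51 in LBRKO (change 2.20). Foxo4, a forkhead transcription factor gene on chromosome X, had 1.17, 0.50 and 0.71 in WT and 3.82, 3.51 and 3.65 in LBRKO (change 2.14). In each of these genes the lowest LBRKO library exceeded the highest WT library, which the naming rule required. Rps6kb1, which encodes the S6 kinase downstream of mTOR, had 6.82, 6.16 and 7.75 in WT and 33.6, 23.6 and 28.0 in LBRKO (change 2.01). The other genes named as higher were Rpn1, a subunit of the oligosaccharyltransferase (2.13), F2, prothrombin (2.10), Map1a, a microtubule-associated protein (2.04), Tyro3, a receptor tyrosine kinase (2.03), Pclaf, a PCNA-binding factor (2.02), and Tmem43, an INM protein (1.98).

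Or1j21, an olfactory receptor gene, had the largest loss of the named genes (chr2:36680550-36687404). Its relative values were 2.15, 2.43 and 2.46 in WT and 0.356, 0.426 and 0.169 in LBRKO, a change of -2.61 ± 0.26 (SE, limma, adjusted p = 2.52e-12). Vmn2r34, a vomeronasal receptor gene, had 6.58, 8.41 and 6.83 in WT and 1.19, 1.34 and 1.24 in LBRKO (change -2.43). No LBRKO library reached the level of a WT library in either gene. The other genes named as lower were Or7d10 (-2.38), the mast cell receptor gene Mrgprb2 (-2.27), the exocrine gland peptide gene Esp36 (-2.25), the sulfotransferase gene Sult2a7 (-2.25), Vmn2r50 (-2.18), the urinary pheromone carrier gene Mup12 (-2.18), the placental prolactin relative Prl3d3 (-2.14) and Vmn1r73 (-2.13). Members of such clusters can share reads with near-identical neighbours, which was not tested here.

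**Figure D1:**
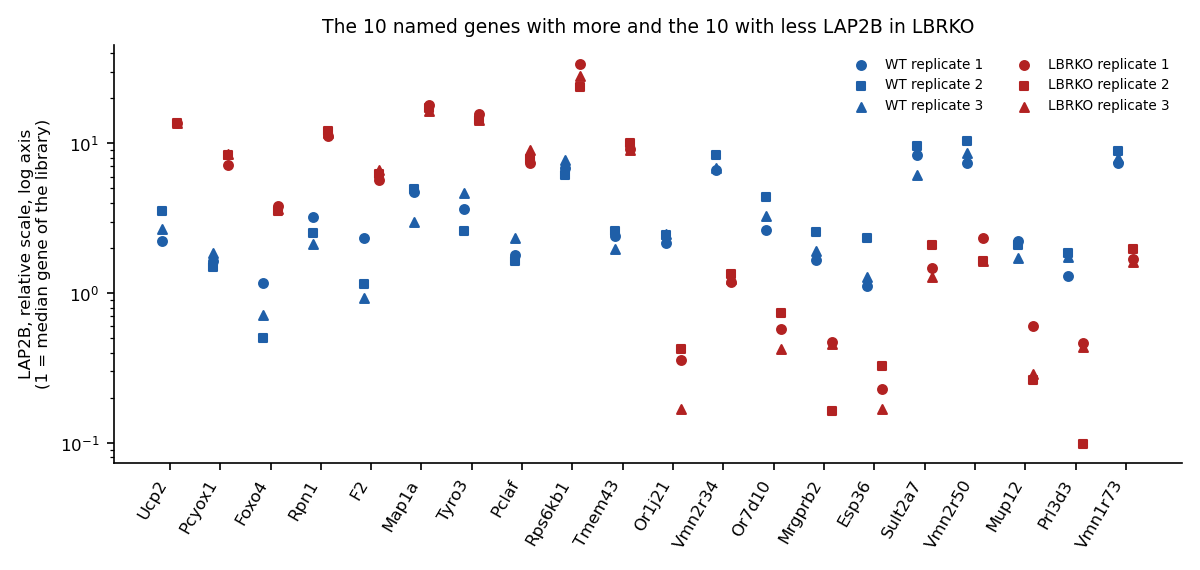
Relative LAP2B value (log axis, library median gene = 1) of the 10 genes named as higher and the 10 named as lower, with 1 point per library for the 3 WT and 3 LBRKO libraries. WT and LBRKO points do not overlap in any of the 20 genes, which the naming rule required.

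Grouping all genes by their LMNB1 level in naive WT cells put the losses in lamina-rich genes and the gains in lamina-poor ones. In the decile of genes with the most LMNB1 per kb, 51.9% were called lower and 10.1% higher, with a median change of -0.61. In the decile below it, 55.5% were lower and 11.0% higher, with a median of -0.68. In the second and the third deciles from the bottom, 45.6% and 45.4% were higher and the medians were each 0.43. The bottom decile rose less, with 33.1% higher and a median of 0.28. In TKO minus WT, against the same 3 WT libraries, the median was -0.65 in the top decile and 0.42 in the second from the bottom. This gradient was thus not particular to LBRKO. The median per-kb level of the top decile was 2.20 ± 0.26 in WT and 1.46 ± 0.14 in LBRKO, and that of the bottom decile was 0.510 ± 0.065 and 0.656 ± 0.080 (SD, n = 3 each). The spread of levels between lamina-rich and lamina-poor genes was thus narrower in LBRKO, although the top decile still held more LAP2B per kb than the median gene. Under a spike-in factor applied to the recovered reads, which raises the median of all genes from 0.22 to 0.62, the seventh and the eighth deciles turned positive (0.33 and 0.07). The top decile then had a median of -0.05 on the spike-in scale, with 1621 genes higher and 1243 lower, so the balance of calls in the most lamina-rich genes reversed.

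**Figure D2:**
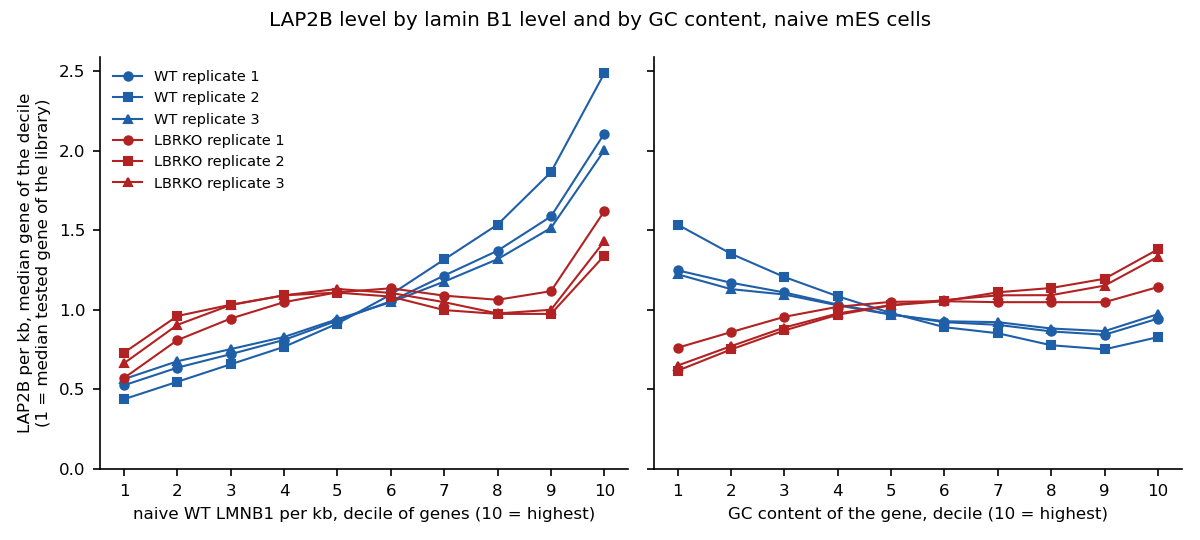
Median LAP2B per kb (y axis, 1 = median tested gene of the library) of genes in 10 classes of rising naive WT LMNB1 per kb (left) and of rising GC content (right), with 1 line per library for 3 WT (blue) and 3 LBRKO (red) libraries. WT lines climb to 2.20 on average in the highest LMNB1 class and LBRKO lines to 1.46, and in the lowest GC class WT averages 1.34 and LBRKO 0.677.

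AT-rich genes had a larger share of losses than any LMNB1 class. In the most AT-rich decile of genes, 68.5% were lower and 6.61% higher, and the median per-kb level was 1.34 ± 0.17 in WT and 0.677 ± 0.076 in LBRKO (SD, n = 3 each). In the most GC-rich decile, 38.8% were higher and 5.96% lower (median change 0.42). Within the quartile of genes with the most LMNB1, the median change went from -0.92 in the most AT-rich quartile of genes to -0.46, -0.36 and -0.09 with rising G+C. Within the quartile with the least LMNB1 it went from -0.29 to 0.29, 0.39 and 0.45. AT-rich genes thus had lower medians than GC-rich ones at like LMNB1 level. Across genes the change correlated with LMNB1 at -0.419, with G+C at 0.44, with WT IGG at 0.336 and with length at 0.031 (Spearman, n = 70313, genes that share libraries and neighbours).

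Very long genes had a large share of losses on the relative scale, which depended on their LMNB1 level. Of 639 genes over 300 kb, 476 were lower (74.5%) and 80 higher, with a median change of -0.76. Of the 236 of them in the quartile with the most LMNB1, 217 were lower (91.9%), whereas of the 58 in the quartile with the least, 13 were lower and 21 higher (median 0.12). Under the factor on recovered reads, 199 of the 639 were lower and 154 higher (median -0.13). Genes of 100 to 300 kb were lower in 48.5% and higher in 33.8%, and genes of 10 to 30 kb were lower in 26.8% and higher in 42.1%. Of genes under 1 kb, 14.7% were higher and 22.1% lower. Depth limits calls in short genes in either direction, so these shares may partly follow length itself.

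By gene type, protein-coding genes leaned to gain, and processed and unprocessed pseudogenes and immunoglobulin V segments to loss on the relative scale. Of 20854 protein-coding genes, 45.5% were higher and 24.1% lower (median 0.30), against 27.8% and 27.7% of 31534 long noncoding RNA genes. Processed pseudogenes, which are reverse-transcribed copies, were higher in 9.61% and lower in 32.9% of 7337. Unprocessed pseudogenes, which arise by duplication of a gene, were higher in 2.43% and lower in 61.2% of 1236 (median -0.85). Immunoglobulin V segments were higher in 0 and lower in 117 of 203, and lower in 62 (30.5%) on the spike-in scale. With pseudogenes included, the list of such segments had 189 of 319 lower on the relative scale, but only 32 lower and 3 higher under the factor on recovered reads, where 6558 of 70382 genes were lower. T cell receptor V segments were higher in 0 and lower in 30 of 129 (23.3%, under the share of all genes). Unitary pseudogenes, which have no working copy left, were higher in 17 (32.1%) and lower in 10 (18.9%) of 53, against 28.9% and 27.3% of all genes. The processed pseudogenes' median was positive (0.13) under the factor on recovered reads.

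Olfactory receptor genes, the largest tandem families of the mouse genome, were mostly lower on the relative scale. Of 130 class I olfactory receptor genes tested, which form 1 cluster on chromosome 7, 121 were lower and 0 higher (median -1.12), and 103 were lower on the spike-in scale (median -0.97). Their median per-kb level was 1.63, 2.17 and 1.63 in the WT libraries and 0.931, 0.731 and 0.788 in the LBRKO libraries. Of 981 class II olfactory receptor genes tested of 1021, spread over many clusters, 784 were lower and 7 higher (median -1.11), and 651 were lower on the spike-in scale. Under the factor on recovered reads 50 class I genes were lower and 2 higher, and 411 class II genes were lower and 50 higher. Their per-kb level was 1.35, 1.69 and 1.28 in WT and 0.695, 0.597 and 0.606 in LBRKO. Olfactory receptors thus went from above to below the level of the median gene.

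Vomeronasal receptors, which detect pheromones, moved likewise. Of 148 type 1 genes tested of 230, 132 were lower and 1 higher (median -1.23), and of 113 type 2 genes, 108 were lower and 1 higher (median -1.39), against 27.3% of all genes lower. The spike-in scale had 114 and 102 of them lower, and the factor on recovered reads 79 and 82. The type 2 per-kb level was 1.44, 1.82 and 1.42 in WT and 0.662, 0.562 and 0.538 in LBRKO. Major urinary proteins, the pheromone carriers that vomeronasal neurons recognise, had the lowest median of the families listed. Of 18 Mup genes tested of 22, 17 were lower (median -1.59), from a per-kb level of 1.72 ± 0.12 in WT to 0.548 ± 0.080 in LBRKO (SD, n = 3 each).

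Further clusters of the immune system, placenta and liver fell as well. Pregnancy-specific glycoproteins and their Ceacam relatives were lower in 23 of 29 and higher in 1 (median -1.42), with Ceacam14 (-1.82) and Psg22 (-1.77) among the leading members. Obox homeobox genes, which act at zygotic genome activation, were lower in 16 of 18 tested of 55 listed (median -1.30). Pramel genes were lower in 38 of 54 and higher in 3 (median -1.04). Skint genes, which select skin gamma-delta T cells, were lower in 10 of 11, with Skint5 at -1.54. Killer cell lectin-like receptors, which natural killer cells use to sense class I antigen, were lower in 23 of 31. Defensins, antimicrobial peptides, were lower in 58 of 82, with Defa20 at -2.05. Serpin A and B protease inhibitors were lower in 46 of 58 and higher in 0. Drug-metabolising Cyp2, Cyp3 and Cyp4 genes were lower in 72 of 107 and higher in 14 (median -0.84), led by Cyp2j6 (-1.96). In these families the share called lower ranged from 67.3% for Cyp genes to 90.9% for Skint genes, against 27.3% of all genes. In the quartile of genes with the most LMNB1, 71.6% were lower in the most AT-rich quartile and 44.9% in the next. Whether these families or the receptor families above exceed genes of like LMNB1 and G+C was not tested. Fewer were lower on the spike-in scale, as in 24 of 58 Serpin, 17 of 31 lectin-like receptor, 44 of 82 defensin, 56 of 107 Cyp, 7 of 11 Skint and 28 of 54 Pramel genes, against 17.5% of all genes. Under the factor on recovered reads these counts were 13, 8, 26, 33, 4 and 20, with 0, 3, 11, 18, 0 and 7 higher.

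Not every silent cluster moved so far. Keratin-associated protein genes, the coat proteins of hair, were lower in 29 of 96 (30.2%), near the share of all genes, and T cell receptor V segments of the list in 39 of 155 (25.2%). Bitter taste receptors were lower in 10 of 34 (29.4%, near the 27.3% of all genes). The medians of these 3 lists were -0.40, -0.42 and -0.48, and turned slightly positive (0.10, 0.08 and 0.07) with the factor on recovered reads. Clustered protocadherins, the neuronal identity genes, split into 20 higher (33.9%) and 26 lower (44.1%) of 59, against 28.9% and 27.3% of all genes. Their median was -0.42, or 0.12 with that factor. Trace amine receptors were lower in 1 (6.25%) and higher in 0 of 16. Keratins were lower in 3 (5.77%) and higher in 5 (9.62%) of 52. The per-kb levels of trace amine receptors and keratins in WT, 1.09 ± 0.07 and 0.855 ± 0.037 (SD, n = 3), lay near that of the median gene.

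**Figure D3:**
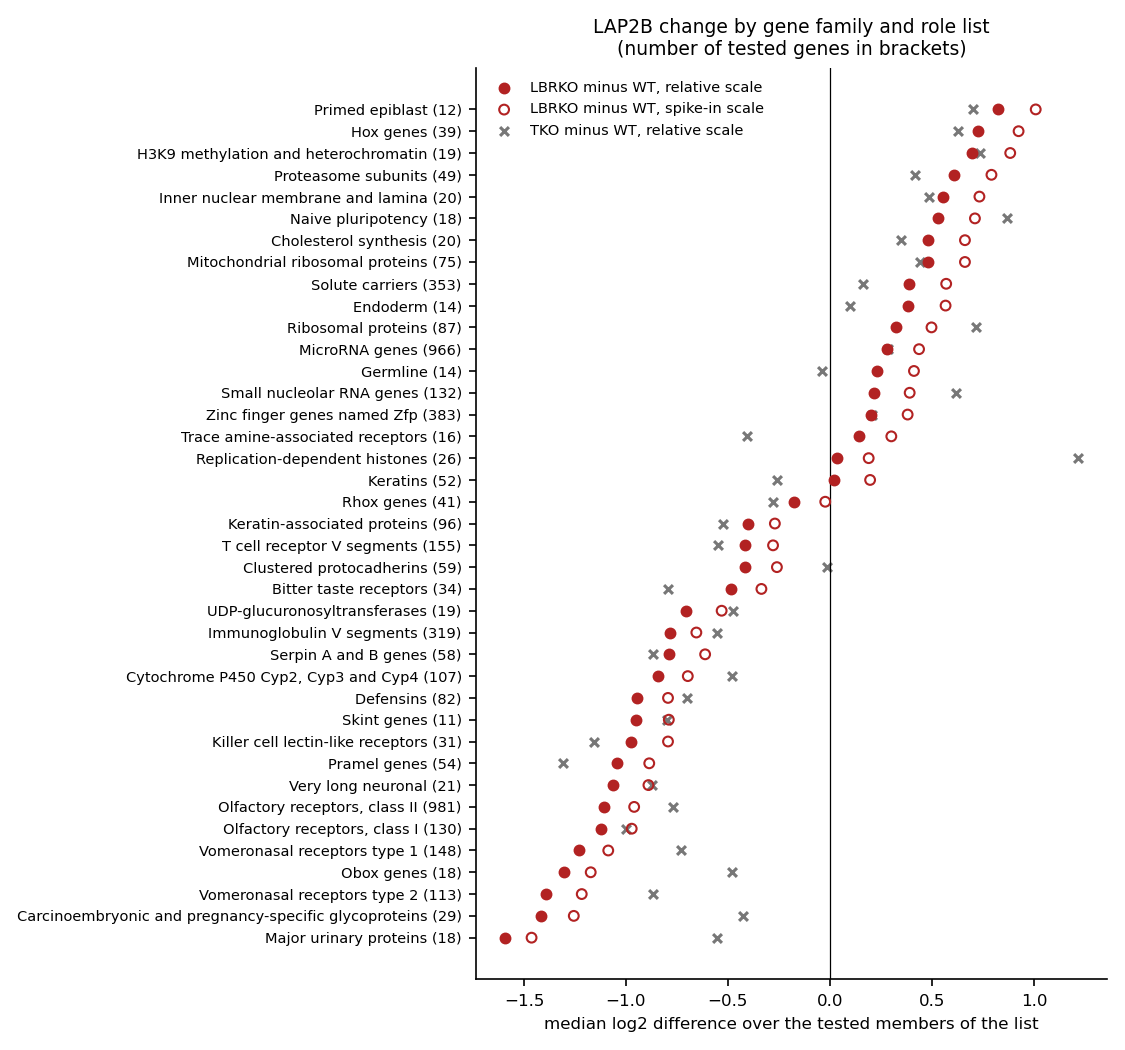
Median log2 difference over the tested genes of each list (number in brackets), for LBRKO minus WT on the relative scale (filled circles) and the spike-in scale (open circles) and for TKO minus WT on the relative scale (crosses), all against the same 3 WT libraries. Mup genes lie lowest in LBRKO, at -1.59, with olfactory receptors at -1.12 and -1.11, and primed epiblast and Hox genes highest, at 0.83 and 0.73.

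Some developmental and housekeeping families had a share of gains above that of protein-coding genes (45.5%), and others lay near or below it. Hox genes, the homeobox genes of body axis patterning, were higher in 25 of 39 and lower in 0 (64.1%, median 0.73). Their per-kb level was 0.702, 0.548 and 0.753 in WT and 1.09, 1.08 and 1.33 in LBRKO, so the ranges did not overlap. Hoxd10 (1.36) and Hoxa10 (1.31) were among the members that changed most. Proteasome subunits were higher in 32 of 49 (65.3%) and lower in 3 (median 0.61), led by Psme1, an activator subunit (1.56), and Psma3, a core subunit (1.50). Mitochondrial ribosomal proteins were higher in 39 of 75 (52.0%) and lower in 4, with Mrpl48 at 1.95. Solute carriers were higher in 188 of 353 (53.3%) and lower in 77, with the taurine transporter Slc6a6 at 1.95. These shares are to be read against 28.9% of all genes and 45.5% of protein-coding genes. In the first and the second quartile of LMNB1 from the bottom, 59.8% and 60.3% of protein-coding genes were higher. Median LMNB1 per kb was 0.61 to 0.78 of the median gene in these lists. In the INM, H3K9, cholesterol, naive and primed lists below it was 0.70, 0.78, 0.68, 0.95 and 0.76. Whether any list exceeded genes of like LMNB1 level was not tested.

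Ribosomal protein genes were higher in 27 of 87 (31.0%) and lower in 5, close to the share of all genes and below that of protein-coding genes, with Rpl5 at 1.67. Zinc finger genes named Zfp were higher in 149 (38.9%) and lower in 85 (22.2%) of 383. These shares lay below the 45.5% and near the 24.1% of protein-coding genes. The family held large changes in either direction, with Zfp609 at 1.99 and Zfp658 at -2.06. MicroRNA genes were higher in 192 (19.9%) and lower in 69 (7.14%) of 966, each below the share of all genes. Their median length was 0.08 kb, and of genes under 1 kb 14.7% were higher and 22.1% lower. Against such short genes they leaned to gain, with a median of 0.28 against -0.06. The lean was weaker over all 1615 tested genes of the microRNA type, with 259 higher (16.0%), 189 lower (11.7%) and a median of 0.18. Of the replication-dependent histone genes only 26 of 72 passed the filter on low values, and 3 were higher and 3 lower (median 0.03, or -0.06 in edgeR).

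LAP2B coverage over the genes of the periphery's own proteins is a statement on DNA contact and not on expression. Of 20 genes of the INM and lamina, 12 were higher (60%, against 45.5% of protein-coding genes) and 1 lower (median 0.55). Tmem43 had 2.42, 2.59 and 1.96 in WT and 9.13, 10.1 and 9.04 in LBRKO. Tmpo, which encodes the LAP2 proteins, had 9.90, 11.7 and 8.98 in WT and 19.7, 15.8 and 17.1 in LBRKO (change 0.78). Sun1, which links the lamina to the cytoskeleton, rose by 1.21 and Tor1aip1, an INM activator of torsin, by 1.27. Syne1, a giant nesprin gene, was the member called lower, with 116, 134 and 114 in WT and 66.1, 63.0 and 62.5 in LBRKO (change -0.92). Lmna, which encodes A-type lamins, changed by 0.29 and did not pass (adjusted p = 0.307), and its WT values ran from 4.16 to 9.56.

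Of 19 genes for H3K9 methylation and its readers, 13 were higher (68.4%, against 45.5% of protein-coding genes) and 0 lower (median 0.70). Mphosph8, the HUSH complex reader of H3K9me3, had 3.50, 3.34 and 4.85 in WT and 14.2, 8.95 and 12.9 in LBRKO (change 1.59). Kdm3a, an H3K9 demethylase, had 7.56, 7.91 and 8.06 in WT and 22.95, 17.7 and 20.2 in LBRKO (change 1.35). Cbx5, which encodes an HP1 protein, had 9.51, 9.11 and 10.4 in WT and 22.9, 18.4 and 21.5 in LBRKO. No LBRKO library of these genes reached down to a WT library, and the methyltransferase gene Setdb1 also rose, by 0.73. Trim28, the corepressor of zinc finger proteins, changed by -0.14 (adjusted p = 0.339).

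The cholesterol pathway, to which LBR contributes a reductase step, had 11 of 20 genes higher (55.0%, against 45.5% of protein-coding genes) and 2 lower (median 0.48). Fdft1, squalene synthase, had 5.08, 4.27 and 5.89 in WT and 12.4, 10.8 and 12.1 in LBRKO (change 1.20). Idi1, the isopentenyl isomerase, fell by 0.82 and the sterol dehydrogenase gene Nsdhl by 0.33. Tm7sf2, the gene of the other sterol 14-reductase, had 0.792, 0.364 and 0.923 in WT and 0.779, 1.46 and 1.34 in LBRKO, and its lowest LBRKO value lay within the WT range (change 0.74, adjusted p = 0.0041).

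Among pluripotency genes of either state more were called higher than lower, as among protein-coding genes at large. Of 18 naive genes, 11 were higher (61.1%, against 45.5% of protein-coding genes) and 0 lower (median 0.53). Klf5 had 4.00, 5.00 and 3.54 in WT and 13.1, 8.33 and 13.9 in LBRKO (change 1.45), Fgf4 rose by 1.26, Pou5f1 by 0.86, Esrrb by 0.72 and Nanog by 0.55. Sox2 (0.35, adjusted p = 0.345) and Klf4 (-0.23, adjusted p = 0.401) did not pass. Of 12 genes of the primed epiblast, 8 were higher (66.7%) and 1 lower (median 0.83), including the de novo methyltransferase genes Dnmt3a (1.01) and Dnmt3b (0.85) and the homeobox gene Otx2 (0.82). Fgf5, the standard marker of the primed state, was the member called lower, with 5.24, 6.43 and 6.23 in WT and 3.31, 3.03 and 4.30 in LBRKO (change -0.74). All its LBRKO values lay below all its WT values.

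Endoderm genes split, with 8 of 14 higher (57.1%) and 4 lower (28.6%), against 45.5% and 24.1% of protein-coding genes. Dab2, an endocytic adaptor of the endoderm, had 31.6, 35.3 and 31.5 in WT and 16.2, 14.8 and 13.5 in LBRKO (change -1.14), and the fetal serum protein gene Afp fell by 0.84. Germline genes were higher in 5 of 14 (35.7%, below the 45.5% of protein-coding genes) and lower in 1, with the meiotic entry gene Stra8 at 1.24 and the piRNA pathway gene Mael at -0.33.

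Very long neuronal genes were lower in 21 of 21 table entries for 20 symbols (Nrg1 has 2 entries), against 27.3% of all genes. The spike-in scale had 19 lower, against 17.5% of all genes. Under the factor on recovered reads 10 were lower and 0 higher (median -0.48). The list had a median length of 1375 kb and a median LMNB1 of 1.88. All genes over 300 kb in the quartile with the most LMNB1 were lower in 91.9%. Their median change was -0.99, close to the -1.07 of the list. That class may hold members of the list and was not split into neuronal and other genes. Whether such losses are particular to neuronal genes was thus not tested. Csmd1 had 577, 691 and 566 in WT and 234, 233 and 210 in LBRKO (change -1.43), and Nrxn3, a presynaptic adhesion gene, 534, 666 and 500 in WT and 255, 207 and 195 in LBRKO (change -1.37). The receptor gene Lrp1b fell by 1.39. Cdh13, an atypical cadherin gene, changed least (-0.38).

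Over 2550 windows of 1 Mb with at least 5 genes, large losses were more common than large gains. The median change was under -1 in 495 windows and above 1 in 71, which lay on 18 chromosomes, with 17 of them on chromosome 6, where copy number and contact cannot be told apart. The window with the largest gain, chr11:86000001-87000000, had 40 of 40 genes higher (median 1.70). It holds Rps6kb1, the clathrin heavy chain gene Cltc, the autophagy gene Vmp1 and the Mediator gene Med13, and its median per-kb level was 0.729, 0.735 and 0.855 in WT and 3.04, 2.13 and 2.68 in LBRKO. Its genes thus went from below the median gene in WT to well above it in LBRKO. The windows chr7:100000001-101000000, with Ucp2, Ucp3 and Rab6a, and chr6:86000001-87000000, with Pcbp1, Tia1 and Tgfa, had 44 of 46 and 51 of 55 genes higher (medians 1.68 and 1.65). In these 3 windows LMNB1 in WT was 0.742, 0.832 and 0.654 of the median gene and IGG 0.978, 1.02 and 1.22. The median LBRKO minus TKO difference there was 1.52, 1.55 and 1.16. All 3 thus lay below the median gene in LMNB1 and above TKO in LAP2B on the relative scale.

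The deepest losses were at chrX:25000001-26000000, with 10 of 10 genes lower (median -1.99), and at chr7:9000001-10000000, with 7 of 7 lower (median -1.91), where Vmn2r49 to Vmn2r52 lie. Its neighbour chr7:8000001-9000000, with Vmn2r41 to Vmn2r44, had 14 of 14 lower (median -1.85). In the window on chromosome X the per-kb level was 0.504, 0.644 and 0.598 in WT and 0.0994, 0.148 and 0.0796 in LBRKO, with LMNB1 at 0.660 and IGG at 0.349 of the median gene. In the vomeronasal windows LMNB1 was 1.77 and IGG 0.7 at chr7:9000001-10000000, and 2.39 and 1.14 in its neighbour. Across windows the median change correlated with G+C at 0.72, with LMNB1 at -0.52 and with IGG at 0.56 (Spearman, n = 2550, windows that share libraries).

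Whole chromosomes differed. On chromosome 11, 43.1% of genes were higher and 14.9% lower (median 0.39), and on chromosome 6, 41.1% and 22.2% (median 0.28). The median on chromosome 6 was above that of the other chromosomes pooled in each quartile of LMNB1, at 0.73, 0.79, 0.24 and -0.45 against 0.36, 0.31, -0.19 and -0.65. A differing number of copies of chromosome 6 and a change of contact cannot be told apart there. Chromosome 8, the other one of which some WT cells had extra copies, stood at 0.08. On chromosome Y, 0 of 934 genes were higher and 449 lower (median -0.66), and a differing share of cells with a Y cannot be told apart from lost contact.

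Transposon families also changed in either direction. The table held 3793386 copies in 1225 families, and a family's value is the mean over its copies, which grows with copy length, so levels are compared between libraries and not between families. On the relative scale 380 families were called higher (31% of families) and 508 lower (41.5%), with a median change of -0.03. In 398 families (32.5%) the LBRKO libraries all lay above WT, and in 513 (41.9%) all below. On the spike-in scale only 4 were called higher (0.327%) and 119 lower (9.71%), with a median of -0.19. The count of losses rested on single libraries, since leaving out WT replicate 2 gave 3 lower, leaving out LBRKO replicate 1 or 2 gave 4 or 8, and leaving out WT replicate 1 gave 194.

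SINEs, the short GC-rich elements that lie near genes, were called higher in 34 of 34 families (median 0.46, spike-in 0.31), with 0 called on the spike-in scale. All 15 B1 families and all 5 B2 families were among them, each with a median of 0.50. PB1D9, an old B1 relative with 28801 copies, led the families of at least 100 copies with 0.753, 0.691 and 0.784 in WT and 1.19, 1.18 and 1.25 in LBRKO (change 0.63, limma, adjusted p = 9.53e-10, spike-in adjusted p = 0.122). B2_Mm1a and B2_Mm1t (each 0.58), B1_Mur4 (0.57), B1_Mur1, B1_Mur2 and B1_Mur3 (each 0.56) and the LTR element ORR1B1-int (0.55) came next. The ancient MIR elements rose less, with 5 of 5 higher at a median of 0.26.

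LINE1 elements split by age on the relative scale. The young families L1MdA (7), L1MdTf (3), L1MdGf (2) and L1MdF (7), which include the lineages that still move in the mouse, were lower in every member on either scale. Their medians were -0.55, -0.50, -0.57 and -0.54 on the relative and -0.72, -0.68, -0.74 and -0.71 on the spike-in scale. In multiples of the median family, their median WT IGG was 1.489, 3.027, 2.46 and 1.564, and LMNB1 1.8, 3.248, 2.485 and 1.865. The background track was thus also high in these families. How much of their LAP2B signal is background, and whether near-identical copies share reads, was not tested. With the replicate number as a block only 14 of all families were lower on the spike-in scale, with the 6 libraries alone 12 and without WT replicate 2 only 3, so without that library most spike-in calls of young LINE1 families were lost. L1MdA_II, with 5338 copies, had 3.32, 3.16 and 3.43 in WT and 2.14, 2.20 and 2.00 in LBRKO (change -0.62, limma, adjusted p = 2.76e-10). L1VL1, with 464 copies, had 2.22, 2.34 and 2.17 in WT and 1.34, 1.33 and 1.27 in LBRKO (change -0.73), and L1_Mus3 and L1_Mur1 were at -0.64 and -0.63. The rodent-wide Lx families were lower in 21 of 21 (median -0.46). The ancient L1M families, shared with other mammals, were higher in 38 and lower in 13 of 60 (median 0.11), so on the relative scale the age classes of LINE1 lay on opposite sides. On the spike-in scale the L1M median was -0.06 and 0 families were called in either direction.

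Endogenous retroviruses of the ERVK group, mostly young and heterochromatic, were mostly lower on the relative scale. IAP families were lower in 25 of 25 (median -0.43), of which 15 on the spike-in scale. In multiples of the median family, their median WT IGG was 1.207 and LMNB1 1.016. Their median LAP2B was 1.155, 1.139 and 1.165 in WT and 0.745, 0.9065 and 0.774 in LBRKO, so WT lay near the background track. How much of this signal is background, and whether near-identical copies share reads, was not tested. ERVB and ETn families were lower in 22 of 27, with 1 higher, and 10 were lower on the spike-in scale. Without WT replicate 2 most of these spike-in calls were lost, as for the young LINE1 families. ERVB4_3-I_MM, with 130 copies, had the largest fall of the families with at least 100 copies (-0.77), and ERVB4_1-I_MM and IAPEY5_I were at -0.68 each. MER67D, an ERV1 family, was at -0.65. Of the RLTR13 group 18 of 23 were lower and 1 higher, and of RLTR9 and RLTR17 families 15 of 17 were lower, against 1 lower of each on the spike-in scale. MERVL and MT2, which are active at the 2-cell stage, had 2 higher and 4 lower of 8. Of all families 31% were higher and 41.5% lower on the relative scale, the shares to set beside the counts given here. ORR1, MT and satellite families also moved in either direction. The major satellite GSAT_MM, listed with 51 copies, changed by -0.26 (adjusted p = 0.271). Of the old DNA transposons of the hAT-Charlie group, 60 of 80 were higher and 6 lower on the relative scale (median 0.15). On the spike-in scale 0 were called in either direction (median -0.01). Of the decile of families with the most LMNB1 per copy, 108 of 123 were lower and 1 higher on the relative scale. In the decile with the least, 20 were lower and 79 higher. On the spike-in scale 60 were lower and 0 higher in the former, and 6 lower and 4 higher in the latter. LMNB1 per copy was not divided by copy length here.

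**Figure D4:**
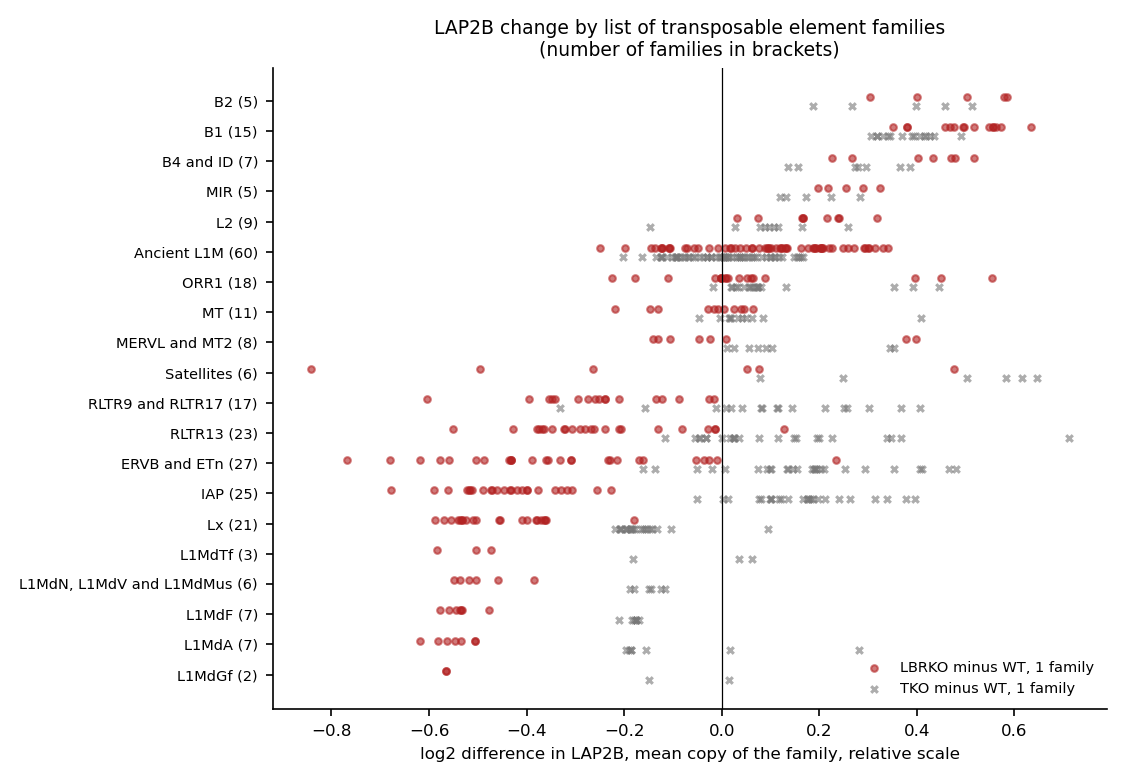
Log2 difference on the relative scale of each transposon family, 1 point per family, grouped by list (number of families in brackets), for LBRKO minus WT (red circles) and TKO minus WT (grey crosses), which share the 3 WT libraries. In LBRKO the L1MdA and IAP families all lie below 0, with medians of -0.55 and -0.43, and the B1 and B2 families all above it, with medians of 0.50 each.

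The scale chosen moves all transposon families together. When each library was divided by its mean family in place of its median, the median of all families was 0.12 and 164 were called lower with 400 higher. Under that scaling the young L1MdA, L1MdTf and L1MdF families stayed lower in all their members, IAP in 22 of 25 and Lx in 17 of 21, and SINEs were higher in 33 of 34. Of the ERVB and ETn families only 12 of 27 were then lower, of RLTR13 4 of 23 and of RLTR9 and RLTR17 2 of 17, with 1, 1 and 0 higher. The medians of the LINE and LTR classes (0.07 each), MERVL and MT2 (0.11), MT (0.14) and satellites (0.05) became positive, so no direction is given for these.

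Copies of 1 group were compared by sorting all copies into quartiles of naive WT LMNB1 per copy. Each library was divided by its mean copy and not by its median family. LMNB1 per copy was not divided by copy length, with which values grow, so the quartiles may also be classes of length. Over all copies the mean value of the quartile with the least LMNB1 was 0.443, 0.379 and 0.476 in WT and 0.593, 0.681 and 0.647 in LBRKO. In the quartile with the most it was 1.95, 2.04 and 1.91 in WT and 1.60, 1.52 and 1.54 in LBRKO. The log2 ratio of LBRKO to WT thus went from 0.57 to 0.39, 0.00 and -0.34 with rising LMNB1. B1 copies stayed above 0 in each quartile (0.75, 0.69, 0.37 and 0.13), as did B2 copies (0.71, 0.63, 0.31 and 0.08). In the quartile with the most LMNB1, however, the lowest LBRKO library lay below the highest WT library, at 1.77 against 1.78 for B1 and 1.56 against 1.66 for B2. L1MdA copies stayed below 0 (-0.13, -0.28, -0.50 and -0.69), and so did IAP copies (-0.39, -0.42, -0.49 and -0.54), whose LBRKO and WT libraries overlapped in the quartile with the least. In the quartile with the least LMNB1, L1MdA copies had 0.393, 0.370 and 0.420 in WT and 0.342, 0.387 and 0.351 in LBRKO, which overlap. In the quartile with the most they had 3.02, 3.02 and 3.00 in WT and 1.93, 1.91 and 1.76 in LBRKO, which do not.

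**Figure D5:**
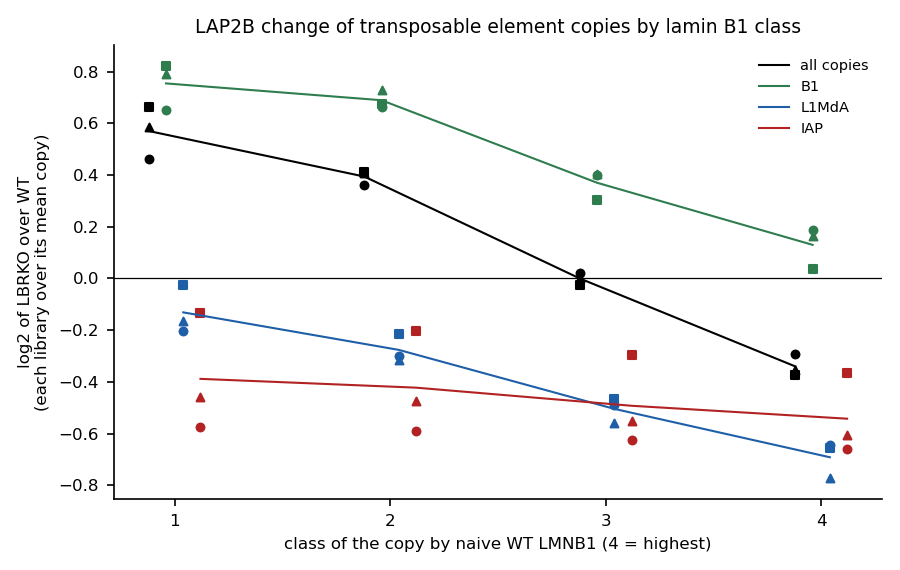
Log2 ratio of each LBRKO library to the WT mean (y axis), from values per copy divided by the library's mean copy, for copies in 4 classes of rising naive WT LMNB1. LMNB1 was not divided by copy length. Points are the 3 LBRKO libraries and lines their mean, and the line for all copies falls from 0.57 to -0.34, with B1 above it and L1MdA and IAP below it in each class.

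LBRKO was set directly against TKO to ask where loss of LBR differs from loss of the lamins. On the relative scale 15128 genes were higher in LBRKO than in TKO (21.5%) and 11155 lower (15.8%). On the spike-in scale, in contrast, 37708 were higher (53.6%) and 512 lower (0.727%), with a median of 0.74 over all genes against 0.03, so the counts below hold for the relative scale alone. These libraries do not include WT, so the difference is free of the shared control. LBRKO cells were made from the WT line, whereas TKO cells are a separate line from a littermate, in which part of the cells also lacked the Y. Line and genotype thus cannot be told apart in this contrast. Olfactory class II genes were lower than in TKO in 251 and higher in 26 of 981, and class I genes in 10 and 2 of 130. Vomeronasal type 1 genes were lower in 80 and higher in 8 of 148, type 2 genes lower in 74 and higher in 8 of 113, Mup genes lower in 17 of 18 and pregnancy-specific glycoproteins in 24 of 29. Tandem clusters of pheromone and placental genes thus held less LAP2B in LBRKO than in TKO relative to the median gene, whereas class I olfactory receptors were mostly not called. Vomeronasal type 1 and type 2 genes were on the spike-in scale higher than in TKO in 23 and 24 and lower in 0, class II olfactory receptors higher in 264 and lower in 13, and Mup genes and pregnancy-specific glycoproteins lower in 1 each. Pramel genes went the other way, also on the relative scale, higher than in TKO in 24 of 54 and lower in 0 (median 0.45). Histone genes were lower in 18 of 26 (median -1.19), ribosomal protein genes lower in 33 and higher in 5 of 87 (median -0.45), and protocadherins lower in 42 of 59. Only 26 of 72 histone genes had passed the filter on low values, which took the mean over all 24 LAP2B libraries, TKO included. Genes high in TKO passed more easily, so the histone difference from TKO may be partly built into the filter. The histone median was -0.50 on the spike-in scale, with 10 lower, and those of ribosomal proteins and protocadherins turned positive (0.31 and 0.20). Set side by side, with WT shared by each contrast, the histone medians against WT were 0.03 in LBRKO and 1.22 in TKO, and the Pramel medians -1.04 and -1.31.

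Of the 20 named genes, 19 also differed between LBRKO and TKO on the relative scale in the same direction as against WT, Prl3d3 being the exception (adjusted p = 0.102). Of the 20, 10 were higher than in TKO and 3 lower on the spike-in scale. The genes were named for extreme LBRKO values and either contrast uses the same 3 LBRKO libraries, so a shared direction is partly built into the choice. Relative to the median gene, Trim28 held less LAP2B in LBRKO than in TKO (-1.39), while Tor1aip1 held more (1.70). Of transposon families, 281 were higher than in TKO (22.9%) and 456 lower (37.2%) on the relative scale, against 1133 (92.5%) and 2 (0.163%) on the spike-in scale. IAP families were lower in 25 of 25 (median -0.58), ERVB and ETn in 27 of 27 and L1MdA in 7 of 7, and SINEs were higher in 28 of 34 and lower in 0 on the relative scale. The IAP, ERVB and ETn and L1MdA medians on the spike-in scale turned positive (0.30, 0.37 and 0.54), so the lower level of these families in LBRKO than in TKO is one relative to the median family. Against WT the IAP median was -0.43 in LBRKO and 0.17 in TKO, each taken against the same 3 WT libraries.

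On the relative scale the effect of LBR loss was larger in naive cells than in EpiLCs at many of these features, tested as the naive LBRKO minus WT change less the EpiLC one. This difference was positive for 6720 genes (9.55%) and negative for 7176 (10.2%), and for 153 (12.5%) and 173 (14.1%) of transposon families. On the spike-in scale only 377 genes (0.536%) were positive and 67 (0.0952%) negative, with 0 and 1 (0.0816%) of transposon families. The study noted that LAP2B signal in WT EpiLCs also lay outside lamina-associated domains, which limits this comparison. On the relative scale the difference was negative in 63 of 130 class I and 239 of 981 class II olfactory receptor genes and in 75 of 113 vomeronasal type 2 genes, and positive in 0, 2 and 0 of them. It was positive in 11 of 39 Hox genes and 33 of 34 SINE families. The median change in EpiLCs was -0.39 for class II olfactory receptors, -0.67 for vomeronasal type 2 genes and 0.14 for Hox genes, against -1.11, -1.39 and 0.73 in naive cells. For the leading gain on chromosome 11 the EpiLC median was 1.27 against 1.70, so that window stood out in either state.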

How the data were processed

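The authors aligned CUT&RUN reads to mm39 and sacCer3 (Bowtie2 2.3.5.1, SAMtools 1.10, deepTools) and deposited signal values, that is, RPKM coverage in bins multiplied by a spike-in factor and summed over the bins of each gene or transposon copy. For genes the blacklist was removed first, for transposons it was not. Bins were of 1 kb for genes and, per the study's methods, 10 kb for transposons. In each library 100% of gene values were whole multiples, within 0.1 of a read, of what 1 read is worth, which gave the reads.

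The deposited signal was analysed as log2(value + pseudocount), where the pseudocount is 0.1 times the median of the table, on the spike-in scale and after division by each library's median (relative scale). The 7820 genes with the lowest means were left out, and 78131 genes matched GENCODE M39 coordinates on mm39. limma 3.58.1 (R 4.3.3) fitted 24 LAP2B libraries as 8 group means with trend, with Benjamini-Hochberg adjustment across all rows of a table. Data were simulated from the naive WT means, with 200 genes changed in LBRKO, all others equal and genes independent. Of the 200, 169 were recovered, with 14 false calls among 70382 genes. This gives no false-call rate for data in which many genes change together. edgeR 4.0.16 on recovered reads was an alternative. Library levels were compared by two-sided exact permutation tests.

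Named genes were called protein-coding genes of at least 5 bins with no overlap between the genotypes, ranked by change, at least 1 Mb apart, with at most 2 per listed family and no predicted genes, 10 in each direction. Of listed families, any member of a short list and the 3 members of a long one with the largest change may be named. Of transposon families with at least 100 copies, 8 in each direction were named. The members and lists were chosen with earlier results of these data known.

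Same-numbered WT and LBRKO libraries did not deviate together (correlations -0.0762, -0.115 and 0.0538), so numbers were not treated as pairs. A file of modified z-scores and 12 columns of LMNB1 and IGG in EpiLCs were not used. Some listed genes are not reported here.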

Additional observations from a re-analysis of the deposited data

Results flagged for a closer look

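The results below were picked out because the LBRKO effect differed between naive cells and EpiLCs, tested in limma as the naive LBRKO minus WT change less the EpiLC one (log2, relative scale, adjusted p under 0.05). This held for 19 of the 20 named genes and 15 of the 16 named transposon families, and the naive change was the larger in all of them. On the spike-in scale the difference passed for 6 of the 20 genes, each positive. The features were named for a large naive change, so a smaller EpiLC change is partly built into the choice.

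Among genes higher in LBRKO the difference was 1.60 for Ucp2, 1.20 for Pcyox1, 1.57 for Rpn1, 1.53 for F2, 1.30 for Map1a, 1.22 for Tyro3, 0.99 for Pclaf, 0.50 for Rps6kb1 and 1.38 for Tmem43. Foxo4 did not pass (0.76, adjusted p = 0.0729). Among genes lower in LBRKO it was -1.66 for Or1j21, -1.20 for Vmn2r34, -1.28 for Or7d10, -1.09 for Mrgprb2, -1.57 for Esp36, -0.91 for Sult2a7, -0.96 for Vmn2r50, -1.51 for Mup12, -1.22 for Prl3d3 and -0.73 for Vmn1r73.

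Among transposon families that gained it was 0.38 for PB1D9, 0.39 for B2_Mm1a, 0.36 for B2_Mm1t, 0.33 for B1_Mur4, 0.32 for B1_Mur3, 0.31 for B1_Mur1, 0.32 for B1_Mur2 and 0.34 for ORR1B1-int. Among those that lost it was -0.30 for ERVB4_3-I_MM, -0.32 for L1VL1, -0.22 for ERVB4_1-I_MM, -0.34 for MER67D, -0.23 for L1_Mus3, -0.29 for L1_Mur1 and -0.24 for L1MdA_II. IAPEY5_I did not pass (adjusted p = 0.232). Groups of 3 libraries are too small for a search for outlying libraries.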

How the results depend on the processing

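All 220 values of named genes and 136 of 144 of named transposon families kept their direction and call. The other 8 lost their call, all on the spike-in scale, where no named family that gained was called. These features were named for large called changes in the same libraries, so keeping their calls is largely built into the choice. The factor on recovered reads was not among the settings tried for named features. Dividing genes by the mean gene gave 23197 higher and 16579 lower on the relative scale, which moved the split by less than 1.5 times in either count. edgeR on recovered reads called 19623 genes higher and 18962 lower on the relative scale. Depth limits short and low genes, of which 7820 were not tested.

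Counts that moved by over 1.5 times did so as follows. With genes of at least 10 kb alone, which tests fewer genes, the relative scale gave 11051 higher and 9075 lower, and the spike-in scale 10233 and 5728. With the spike-in factor applied to recovered reads, 35158 genes were higher and 6558 lower on the spike-in scale, and the library level differed by 0.51. Taken over transposon families, the library level differed by -0.333. With the median over copies, 187 families were higher on the relative and 275 lower on the spike-in scale. Dividing by the mean family left 164 lower on the relative scale. With the 6 libraries alone, 1 family was higher and 12 were lower on the spike-in scale. Taken on the spike-in scale, an alternative chosen after seeing the data, 444 genes and 1 transposon family differed between naive cells and EpiLCs, against 13896 and 326 on the relative scale, and 1135 families differed from TKO against 737. With families of at least 100 copies, 0 were higher there (4 of all families were).

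With the replicate number as a block, 17070 genes were higher and 17297 lower on the relative scale and 319 families higher and 449 lower. On the spike-in scale it left 2 families higher and 14 lower, and it changed no other call beyond that margin.

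Leaving out 1 library at a time gave 12704 to 22103 genes higher and 7264 to 12711 lower on the spike-in scale, the lowest without LBRKO replicate 3 and without WT replicate 2. It gave 2 to 4 families higher and 3 to 194 lower there. Without WT replicate 2, LBRKO replicate 1 and LBRKO replicate 2 the lower families were 3, 4 and 8, and without WT replicate 1 they were 194. The library level difference was -0.051 to 0.24. On the relative scale the counts were 17797 to 19655 genes higher and 16554 to 18696 lower, below the 20375 and 19229 with all libraries. The causes were not tested.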

Other observations

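A few groups were not described above. Major satellites aside, the simple satellite-like family ZP3AR rose by 0.48 on the relative scale, while CENSAT_MC, listed with 4 copies, and SYNREP_MM, listed with 26, stood at -0.84 and -0.50. Small nucleolar RNA genes of the list were higher in 24 (18.2%, below the 28.9% of all genes) and lower in 1 of 132. Of all 1110 genes of that type, in contrast, 109 were higher (9.82%) and 311 lower (28.0%, near the 27.3% of all genes). Genes under 1 kb were higher in 14.7% and lower in 22.1%. Rhox genes, a homeobox cluster of the reproductive tract on chromosome X, were lower in 5 (12.2%) and higher in 1 of 41, shares below those of all genes, and with the spike-in factor applied to recovered reads 8 were higher and 0 lower.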
